A study of Mus musculus with 15 samples.

Results

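Colon RNA of 8 control C57 mice was set against a single pool of RNA from several tissues, and the genes that stood above or below the pool at both ages were sought. The 8 arrays, of 15 in the series, are those whose titles name a C57 mouse: 4 mice at 7 weeks (mice 43, 44, 45 and 46) and 4 at 12 weeks (mice 63, 64, 65 and 66), 1 mouse per array. All were male C57BL/6J mice, kept singly on an AIN-76A powder diet and inoculated by mouth with Enterococcus strains and intestinal flora, as were the Il10-/- mice of the series, so that all groups carried added bacteria. The other 7 arrays hold colon of inoculated Il10-/- mice (B6.129P2-Il10<tm1Cgn>/J) of 7 and 12 weeks. The strain and age fields of the labels are the same on all arrays, so that genotype and age rest on the titles. RNA came from full-thickness colon, and was labelled with Cy3. The Cy5 channel held a pool to which liver, kidney, colon, small intestine and fetuses of healthy Swiss mice gave equal amounts of RNA. Each value is a log2 ratio of these channels. Its direction is not given in the sources used here and was read from the values, in which transcripts of liver lay far from 0 on every array, so that low ratios of liver genes are set by that choice and are no finding about its sign. It is therefore taken as colon over pool: 1 is 2-fold above the pool and -1 is 2-fold below it. Errors printed with means are standard errors from the fit, which shares 1 spread for a gene over all 4 groups of the series, Il10-/- mice included. In bulk tissue, fewer cells of a type and less RNA per cell cannot be told apart.

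The colon takes up water, salt and the short-chain fatty acids made by its bacteria, and covers its surface with mucus from goblet cells. Its epithelium is a single layer of absorptive, goblet, enteroendocrine and tuft cells that is renewed from crypt stem cells. The layer lies on connective tissue with immune cells and, in full-thickness tissue, on smooth muscle and enteric nerves. The other tissues of the pool have RNAs of their own. Hepatocytes make plasma proteins, urea and bile acids. Kidney tubules take back filtered solutes. Small intestinal epithelium has brush border hydrolases, and its Paneth cells make alpha-defensins. Fetuses hold nearly every developing tissue.

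A ratio to such a pool has a limit on one side. The pool has 5 sources in equal amounts and colon is 1 of them, so an RNA that only colon held, at the same level in sample and pool, would stand 5-fold over the pool, or 2.32 on the log2 scale. No such limit applies below 0. Mice and pool differ in strain, dyes were not swapped, and the pool is 1 RNA preparation with no spread of its own, so a dye effect and a strain difference cannot be told apart from a tissue difference. The tests cover the spread between mice. Only ratios were used here, with no intensities, so a ratio near 0 can be a gene at equal level or one that neither channel measured.

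With the direction set by liver genes, some colon markers were above the pool and others were not. The homeobox gene Cdx2, which sets intestinal identity, Muc2, the main secreted mucin, and Cyp2c55, a P450 of colon epithelium, were above the pool in all 8 mice. Of 12 markers of colon absorptive cells, 8 had means above 0, with a list median of 0.30. Car1 and Car4, the carbonic anhydrases of these cells, had means of 0.40 and 0.74 at 7 weeks and 0.22 and 0.36 at 12 weeks (Car1 of mouse 65 was at the value that many features of that array share), and the goblet cell lectin Zg16 had no ratio of its own, as described below. Medians of 13 reference genes lay between -0.03 and 0.11 on the arrays.

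Mouse 66 stood apart. Correlations between C57 arrays over genes ranged from 0.83 to 0.96 in 28 pairs, and the median correlation with the other arrays was lowest for mouse 66 (0.85) and next lowest for mouse 43 (0.88). Among genes called at both ages, 27 had a mouse over 1 log2 unit from the median of the 8 mice. In 21 of them this was mouse 66, in 19 of which it lay above the median, and mice 43 and 63 accounted for 3 each. Genes of small intestinal epithelium led this deviation, and their values are given below with and without mouse 66. Without mice 43 and 66 together, a choice made after the values were seen, 104 genes were above and 605 below the pool at both ages, 87 of the 94 and 584 of the 590 genes found with all mice among them.

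Of 19076 genes tested in limma, 167 were at least 2-fold above the pool at 7 weeks (0.875% of genes, adjusted p under 0.05) and 159 at 12 weeks (0.834%). At each age 642 genes were below it (3.37%). At both ages 94 genes (0.493%) were above and 590 (3.09%) below. Every count of called genes in a list or family given below is to be read against these 2 shares. Only 7 of the 94 were 4-fold or more above the pool at both ages, whereas 207 of the 590 were as far below it, 77 of them 8-fold and 21 of them 16-fold. Cbr3 and Cyp2c66 alone exceeded 2.32 at both ages. All 8 mice lay beyond 2-fold for 57 of the 94 and for 460 of the 590 genes. All 94 genes were above 0 in every mouse, and 582 of the 590 were below 0 in every mouse. With each mouse left out in turn, 77 and 551 genes kept their call every time. The median SD over the 8 mice was 0.21 for genes above and 0.21 for genes below the pool, against 0.11 over all genes. Just inside the threshold lay Slc39a4 (1.00 and 1.41 at 7 and 12 weeks) and Ppp1r3c (-1.0005 and -1.02), and just outside it Plgrkt (0.999 and 1.15) and Slc38a4 (-1.03 and -0.999).

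**Figure D1:**
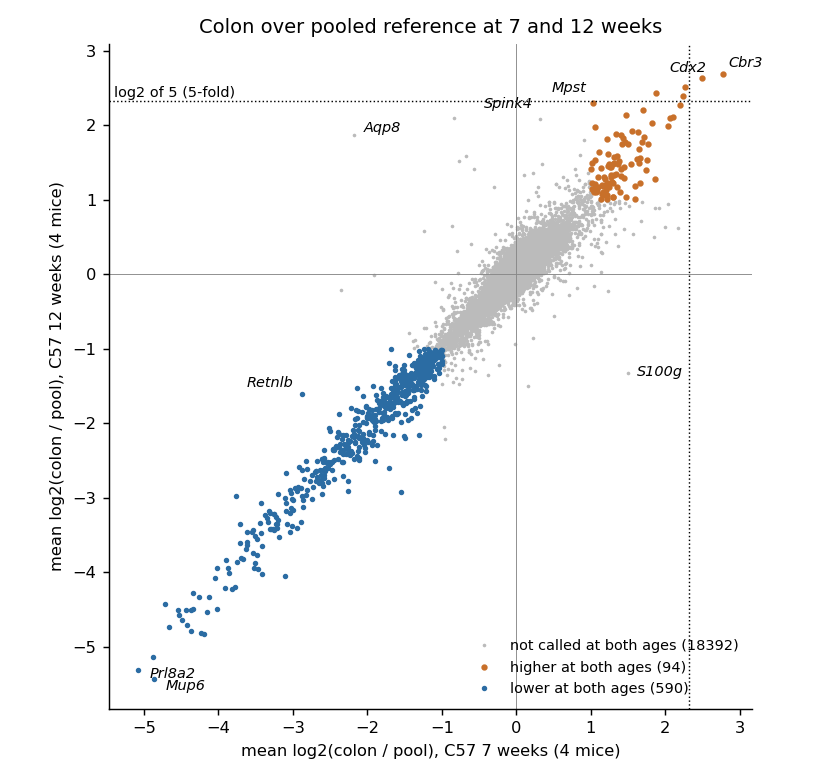
Mean log2 ratio of colon over pool at 7 weeks (horizontal, 4 mice) and at 12 weeks (vertical, 4 mice), 1 point per gene. Orange points are the 94 genes above and blue points the 590 genes below the pool at both ages; dotted lines mark 5-fold, which Cbr3 and Cyp2c66 exceeded at both ages, and Aqp8 and S100g lie in opposite quadrants.

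Enzymes that modify drugs, steroids and fatty acids, and a drug pump, headed the genes above the pool. Cbr3, a carbonyl reductase, had the highest mean. Its log2 ratios were 3.08, 2.52, 2.40 and 3.09 in mice 43 to 46 and 2.85, 3.23, 2.84 and 1.82 in mice 63 to 66. Its means were 2.77 ± 0.20 and 2.69 ± 0.20 (SE, n = 4 and 4, limma adjusted p = 8.81e-09 and 1.24e-08), or 6.82-fold and 6.44-fold, and mouse 66 was the lowest. Cyp2c66, a cytochrome P450, lay between 2.43 and 2.70 in the 8 mice, with means of 2.49 ± 0.17 and 2.63 ± 0.17. Cyp2c55 of the same family had 2.18, 2.40, 2.14 and 2.22 at 7 weeks and 2.34, 2.49, 2.32 and 2.40 at 12 weeks, so that the ages overlapped. Near-identical members of such families can share probes, and their single values are uncertain to that extent. Sult1a1, a phenol sulfotransferase, spread more widely, from 1.69 in mouse 46 to 2.55 in mouse 43, and its means were 2.19 ± 0.28 and 2.27 ± 0.28. Ugdh, which makes the UDP-glucuronic acid used in glucuronidation, had means of 1.82 ± 0.16 and 2.04 ± 0.16. Abcb1a, an efflux pump for foreign compounds, lay between 1.80 and 2.24 in the 8 mice. Akr1c13, an aldo-keto reductase, had means of 1.70 ± 0.06 and 2.20 ± 0.06.

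The remaining 5 of the 12 highest genes had other roles. Cdx2 was 2.23, 2.21, 2.34 and 2.25 at 7 weeks and 2.49, 2.57, 2.44 and 2.56 at 12 weeks, with every mouse of 12 weeks above every mouse of 7 weeks, but the difference of 0.25 did not pass the test (limma adjusted p = 0.352). Emp1, an epithelial membrane protein, had means of 1.88 ± 0.10 and 2.43 ± 0.10. Adamdec1, an ADAM-like metalloprotease of gut mucosa, had 2.04 ± 0.17 and 1.99 ± 0.17. Fam83e had 2.10 ± 0.07 and 2.11 ± 0.07, and Sdcbp2, a syntenin, 1.47 ± 0.05 and 2.14 ± 0.05.

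**Figure D2:**
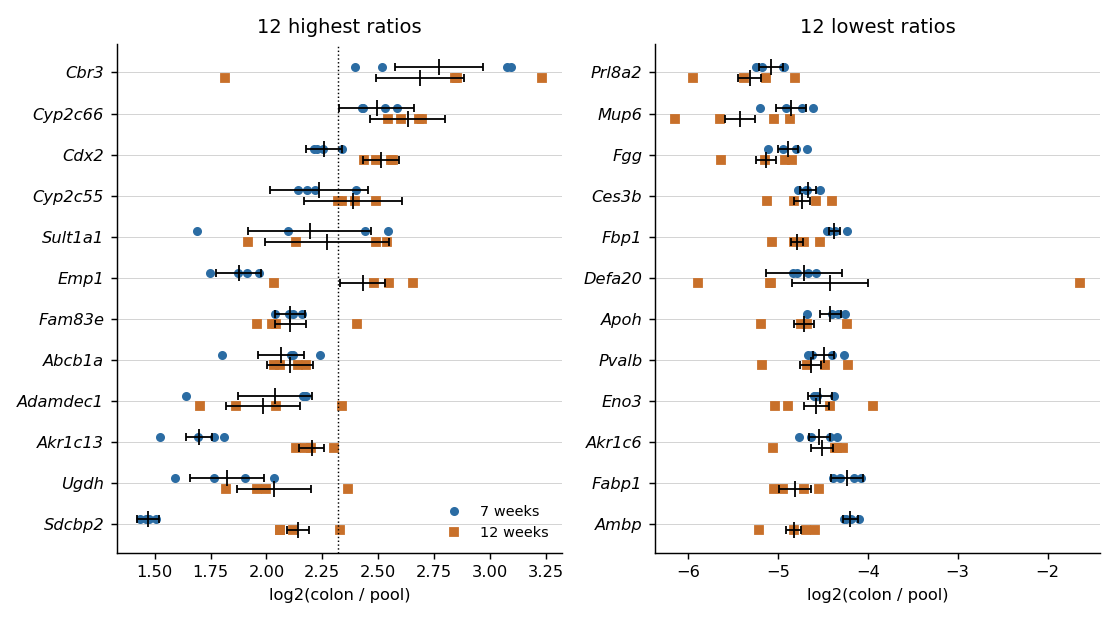
Log2 ratio of colon over pool in each mouse (blue circles 7 weeks, orange squares 12 weeks) for the 12 genes with the highest and the 12 with the lowest mean among genes called at both ages; black bars are group means ± SE and the dotted line marks 5-fold. Cdx2 values lie between 2.21 and 2.57, and mouse 66 lies apart at -1.64 for Defa20.

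Promoters of 4 genes are shown because they carry letters known from the binding of gut and liver factors. Windows run from 250 bases before to 50 after the start of the gene, 5′ to 3′ in the direction of the gene, from RefSeq on GRCm38.p6. The gene farthest above the pool was taken among those with a Cdx type or Hnf4 type match, and the gene farthest below it among those with an Hnf1 type or Hnf4 type match. Motifs were searched on both strands, each on its own: TTTATNG, of the Cdx type, is in 11.3% of 27025 promoters, CAAAGTNCA, of the Hnf4 type, in 1.41%, and the longer Hnf1 type motif in 0.437%. Capitals mark the match to 1 motif: the Cdx type (reverse strand) in Cyp2c55, the Hnf4 type in Abcb1a and Cyp3a41a, and the Hnf1 type in Cltrn.
Cyp2c55 promoter, chr19:39006769-39007068, plus strand: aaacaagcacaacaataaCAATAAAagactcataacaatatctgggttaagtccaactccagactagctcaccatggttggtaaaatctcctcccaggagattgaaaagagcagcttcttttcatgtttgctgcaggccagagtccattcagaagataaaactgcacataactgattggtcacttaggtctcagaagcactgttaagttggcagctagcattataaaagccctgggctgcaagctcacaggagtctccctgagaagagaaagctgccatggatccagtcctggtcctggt
Abcb1a promoter, chr5:8566841-8567140, plus strand: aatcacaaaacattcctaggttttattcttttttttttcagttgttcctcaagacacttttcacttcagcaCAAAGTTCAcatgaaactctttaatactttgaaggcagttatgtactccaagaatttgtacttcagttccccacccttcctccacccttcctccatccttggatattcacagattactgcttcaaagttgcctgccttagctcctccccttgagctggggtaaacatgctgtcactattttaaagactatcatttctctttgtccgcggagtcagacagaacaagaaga
Cltrn promoter, chrX:164089937-164090236, plus strand: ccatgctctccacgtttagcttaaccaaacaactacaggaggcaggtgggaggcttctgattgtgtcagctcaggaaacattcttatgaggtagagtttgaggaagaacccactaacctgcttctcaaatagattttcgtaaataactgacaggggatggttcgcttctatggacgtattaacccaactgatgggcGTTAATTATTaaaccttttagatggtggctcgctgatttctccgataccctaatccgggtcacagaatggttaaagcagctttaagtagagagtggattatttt
Cyp3a41a promoter, chr5:145720087-145720386, minus strand: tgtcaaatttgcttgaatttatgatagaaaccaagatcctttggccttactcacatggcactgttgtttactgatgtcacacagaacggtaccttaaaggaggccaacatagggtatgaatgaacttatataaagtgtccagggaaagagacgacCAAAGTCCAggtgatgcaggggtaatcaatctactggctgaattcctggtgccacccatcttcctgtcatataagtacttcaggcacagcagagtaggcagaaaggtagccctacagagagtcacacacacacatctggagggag
The first pair were above the pool and the second pair below it. Cltrn, the kidney protein collectrin, had means of -4.37 ± 0.15 and -4.51 ± 0.15, and Cyp3a41a, a hepatic P450, -4.02 ± 0.12 and -3.94 ± 0.12. A promoter was at hand for only 68 of the 94 genes above the pool (72.3%) and 462 of the 590 below it (78.3%). Both are under 80%, so the check of motif shares between the sets is void and no shares are given.

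Related enzymes fell on opposite sides of the pool. Of 36 genes of drug metabolism, 4 were above and 8 below it at both ages, against 0.493% and 3.09% of all genes, and the list median was -0.23. Above it were Cyp2c55, Sult1a1, the carboxylesterase Ces1g (1.05 ± 0.16 and 1.98 ± 0.16) and the P450 Cyp2s1 (1.59 ± 0.12 and 1.19 ± 0.12). Farthest below it were the P450s Cyp2f2 (-3.90 ± 0.17 and -3.83 ± 0.17), Cyp2j5, Cyp2e1 (-2.95 ± 0.17 and -3.41 ± 0.17) and Cyp3a11, most of them abundant in liver. The same split ran through single families, which were counted after their values were seen. Of 10 Cyp2c genes 2 were above and 5 below, the lowest of which were Cyp2c70 (-2.82 and -2.61) and Cyp2c39 (-2.22 and -2.37). Of 14 Akr1 genes 3 were above (Akr1c13, Akr1c19 and Akr1b8) and 5 below, from Akr1c14 (-1.71 and -1.20) to Akr1c6 (-4.54 and -4.51). Of 5 Ces1 genes Ces1g was above and Ces1c (-3.42 and -3.65), Ces1d and Ces1f were below.

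Genes of hydrogen sulfide metabolism, noticed after their values were seen, were above the pool in part. Gut bacteria release sulfide, and the colon epithelium oxidises it in mitochondria. Sqor, the quinone oxidoreductase that starts this, was 1.01 to 1.10 in the 7-week and 1.46 to 1.60 in the 12-week mice. Ethe1, the persulfide dioxygenase, had means of 1.40 ± 0.07 and 1.88 ± 0.07. Mpst, a sulfurtransferase, had 1.03 ± 0.12 and 2.30 ± 0.12. The 7-week mean of Mpst was 0.99 without mouse 43 and 0.99 without mouse 46, under the threshold. Tst, another sulfurtransferase, reached only 0.28 and 0.42, and Suox, the sulfite oxidase, was at -1.09 and -0.64.

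Most epithelial structure genes lay above the pool, by less than 2-fold. Of 27 genes, Krt8 had no ratio of its own, as described below, and the other 26 had means above 0. The list median was 0.44 (0.44 also with features at the shared value left out) against -0.0044 over all genes, and 3 passed the threshold at both ages. These were Cdh1, the E-cadherin of adherens junctions (1.34 ± 0.05 and 1.35 ± 0.05), the claudin Cldn3 (1.17 ± 0.06 and 1.31 ± 0.06) and the tetraspanin Tspan8 (1.02 and 1.23, and 0.94 at 7 weeks without mouse 46). Of 20 mucins and mucin glycosylation genes 17 had means above 0 and 3 were called, with a list median of 0.50. Muc2 was 1.82, 1.12, 1.46 and 1.36 at 7 weeks and 1.44, 1.74, 1.34 and 0.62 at 12 weeks, lowest in mouse 66. Galnt12, which starts O-glycans on mucins, had means of 1.66 ± 0.08 and 1.56 ± 0.08, and Gcnt3, which branches them, 1.16 ± 0.07 and 1.19 ± 0.07. The trefoil peptide Tff3 had 0.89 and 1.12.

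Among 24 gut transcription factors Cdx2 alone was called, and its paralog Cdx1 had means of 0.65 and 0.43. Of 26 genes of colon ion and water transport 1 was above and 1 below the pool (0.493% and 3.09% of all genes were), with a list median of 0.16. Kcne3, the beta subunit of the basolateral potassium channel, had 1.07 and 1.10 (0.93 at 12 weeks without mouse 63), and its partner Kcnq1 1.16 and 0.63. Guca2a, the hormone guanylin, had 1.05 and 1.17 (0.94 at 7 weeks without mouse 43). Fxyd4, a regulator of the sodium pump known from kidney collecting duct and colon, was below the pool in every mouse, from -1.86 to -1.29. Slc5a8, the butyrate transporter, had -0.51 and -0.74.

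Of 37 Hox genes, whose paralog groups follow position along the body axis, 3 were called (8.11%, against 3.59% of all genes). Of 22 genes of groups 1 to 8, only Hoxb5 was called (1.30 ± 0.11 and 1.04 ± 0.11). Its 12-week mean was 0.96 without mouse 63. Its neighbour Hoxb7 had 1.22 and 0.99, and Hoxb9 of the next group 1.31 and 0.95. Of 15 genes of groups 9 to 13, Hoxa10 (-1.53 ± 0.09 and -1.46 ± 0.09) and Hoxa11 (-1.81 ± 0.09 and -1.93 ± 0.09) were below the pool (13.3%, against 3.09% of all genes). Hoxa13, the most posterior gene of that cluster, had 0.14 and 0.01.

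Contractile genes of smooth muscle were above the pool in part. Of 14 genes 12 had means above 0, 4 were called above and 1 below, with a median of 0.40. Myh11, the smooth muscle myosin heavy chain, was 1.68, 1.99, 1.76 and 1.63 at 7 weeks and 1.20, 1.91, 2.15 and 1.73 at 12 weeks. Cnn1 (calponin), Myl9 (a myosin light chain) and Tagln (transgelin) had means between 1.23 and 1.69. Des, the intermediate filament of all muscle types, was below the pool (-1.04 and -1.26, and -0.94 at 7 weeks without mouse 46). Actg2, the enteric smooth muscle actin, was also below 0 (-0.65 and -0.73) but was not called. Acta2, smooth muscle actin, had 5 features whose means ran from -1.50 to 1.46, so that its gene value of 0.33 and 0.28 averages features that disagree.

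In lists of other cell types of the colon wall, 1 gene or none was called at both ages. The lists given first are those with no gene called, so their 0 of 42, against 3.59% of all genes, was fixed by that choice. None of 12 enteroendocrine, 10 enteric neuron and glia, 9 tuft cell, and 11 macrophage and dendritic cell genes was called in limma at both ages. Without the 2-fold threshold, 5, 5, 4 and 3 of them in turn lay on 1 side of the pool with an unadjusted p under 0.05 at both ages, as did 7149 of all 19076 genes. All 10 neuron and glia genes had means above 0, up to 0.54 for Vip. The enteroendocrine granins Chga and Chgb were at 1.99 and 1.85 at 7 weeks but 0.63 and 0.49 at 12 weeks, when single mice ran from -0.27 to 1.47 for Chga. The peptides Nts and Sst had 1.56 and 1.13 at 7 weeks and 0.54 and 0.54 at 12 weeks, and Insl5, a peptide of distal colon, was at -0.80 and -0.75. Of 11 stem cell genes only Prom1 was called (1.46 ± 0.10 and 1.78 ± 0.10), and of 11 B cell genes only Blnk (1.44 ± 0.08 and 1.83 ± 0.08). Below the pool were Gzma, the granzyme (-1.39 and -1.22), 1 of 10 T cell genes, and Col1a1, a collagen (-1.31 and -1.41), 1 of 12 fibroblast genes, with 3 features between -2.93 and -0.03. Of 24 cell cycle genes only Rrm2, of ribonucleotide reductase, was called (-2.51 and -2.07).

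**Figure D3:**
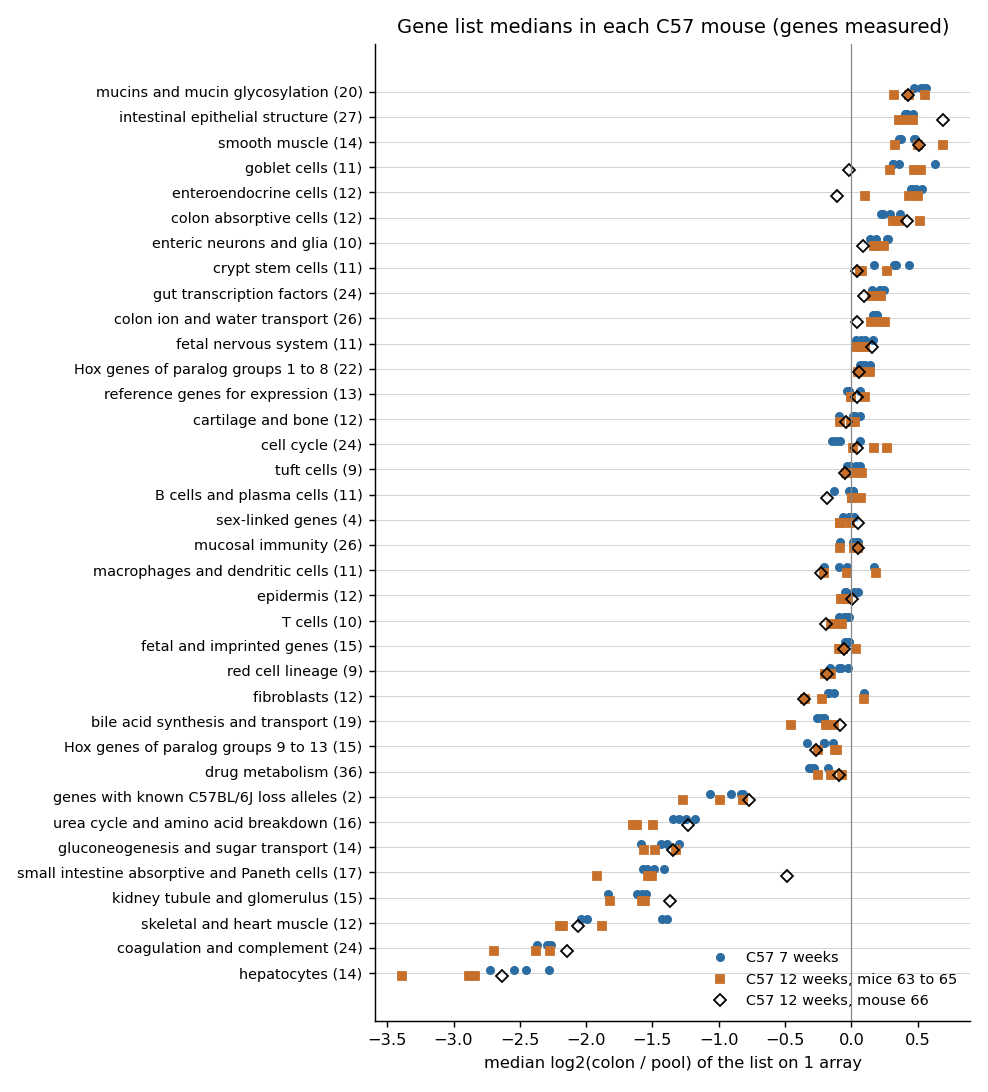
Median log2 ratio of colon over pool for each gene list on each C57 array (blue circles 7 weeks, orange squares mice 63 to 65 of 12 weeks, open diamonds mouse 66); the number measured stands beside each list. Hepatocyte genes lie between -3.39 and -2.28, and small intestinal genes at -0.49 in mouse 66 against -1.92 to -1.42 in the other 7 mice.

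Genes of hepatocytes were mostly below the pool. Of 14 hepatocyte genes 12 were below the pool at both ages, with array medians from -3.39 (mouse 63) to -2.28. Fgg, the gamma chain of fibrinogen, was -4.80, -5.12, -4.68 and -4.94 at 7 weeks and -5.63, -5.14, -4.92 and -4.84 at 12 weeks. Its means of -4.88 ± 0.11 and -5.14 ± 0.11 are 29.5-fold and 35.1-fold below the pool (limma adjusted p = 1.7e-14 and 9.26e-15). Mup6, a major urinary protein secreted by liver, had means of -4.86 ± 0.17 and -5.43 ± 0.17, and mouse 63 was the lowest at -6.14. Apoh, a plasma glycoprotein, Ambp, a plasma protease inhibitor precursor, and the carboxylesterase Ces3b lay below -4 in every mouse. Of 24 coagulation and complement genes 18 were below the pool, among them F2 (prothrombin, -4.33 and -4.50), Fgb and Mbl2, and the list median was -2.36. Of the 14 hepatocyte genes, Tat (-0.96 and -0.82) and Cyp7a1, the rate-limiting enzyme of bile acid synthesis (-0.01 and -0.18), were not called.

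Genes of amino acid breakdown and gluconeogenesis were mostly below the pool, whereas most genes of bile acids were not called. Of 16 genes of the urea cycle and amino acid breakdown, 11 were below it, with Agxt (-3.03 and -3.13), Bhmt, Ass1 (-2.65 and -2.80) and Arg1 (-2.62 and -2.48) the farthest. Of 14 genes of gluconeogenesis and sugar transport 10 were below it, led by Fbp1, fructose bisphosphatase (-4.37 ± 0.07 and -4.79 ± 0.07), and Ldhb, a lactate dehydrogenase (-2.87 and -3.13). Of 19 bile acid genes 6 were below it, with a list median of -0.15 and 5 genes above 0, among them Cyp7b1 (-3.01 and -3.02), Slc27a5 (-2.11 and -2.47) and the canalicular pump Abcb11 (-1.82 and -1.74). Slc10a2, which takes up bile acids in ileum and kidney, had 1.45 and 0.96. Of 15 kidney genes 9 were below it, with array medians from -1.83 to -1.37. Kap, an androgen-regulated protein of proximal tubule, had means of -3.46 ± 0.12 and -3.95 ± 0.12, Umod, uromodulin, -3.54 ± 0.08 and -3.46 ± 0.08, and Slc34a1, the phosphate transporter, -3.43 ± 0.17 and -3.47 ± 0.17.

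Most genes of small intestinal epithelium lay below the pool, and their median was closer to it in mouse 66. Of 17 genes 16 had means below 0 and 9 were called below the pool at both ages, and the same number without mouse 66. Slc10a2, also of this list, went the other way, with 0.86 to 1.76 in the 8 mice. Gata4 lay near 0 (-0.12 and -0.09). Mouse 66 had the highest value of the 8 mice for 13 of the 17, against 18.5% of all genes. The list median at 12 weeks was -1.46, and -1.72 without mouse 66. Anpep, a brush border aminopeptidase, was -0.0015 in mouse 66 and between -4.13 and -3.53 in the others. Its 12-week mean was -2.98 ± 0.47, and -3.97 ± 0.18 without that mouse. The SD of Anpep was 1.99 at 12 weeks and 0.26 at 7 weeks, so the error of 0.47, from a spread shared over groups, is too small for 12 weeks. Sis, sucrase-isomaltase, was -0.67 in mouse 66 and -2.85 to -1.60 in the others, and Enpep, glutamyl aminopeptidase, 0.11 against -2.53 to -1.63. Among genes chosen for this difference, Mogat2, of fat absorption, was -0.72 against -2.59 to -2.04, and Apoa1, an apolipoprotein, -1.71 against -3.77 to -3.31. Lct, lactase, was only just outside the others, with -2.996 in mouse 66 against -3.71 to -3.10, and Lyz1, the Paneth cell lysozyme, was within their range, with -2.07 against -2.82 to -1.71. The part of small intestinal RNA in the values of mouse 66 was not tested.

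Alpha-defensins of Paneth cells were also below the pool. Of 6 Defa genes 5 were below the pool. Defa20 was between -5.89 and -4.58 in 7 mice and -1.64 in mouse 66, and its 12-week mean was -4.42 ± 0.42, and -5.35 ± 0.12 without mouse 66. Its SD was 1.90 at 12 weeks and 0.11 at 7 weeks, so the shared error of 0.42 is too small for 12 weeks. Defa23 was -0.66 in mouse 66 and -4.33 to -3.23 in the others, with 12-week means of -3.33 and, without mouse 66, -4.22. Defa22 moved less, with -2.22 against -3.57 to -2.80. These genes are near-identical copies, and their features cannot be taken as separate measurements.

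**Figure D4:**
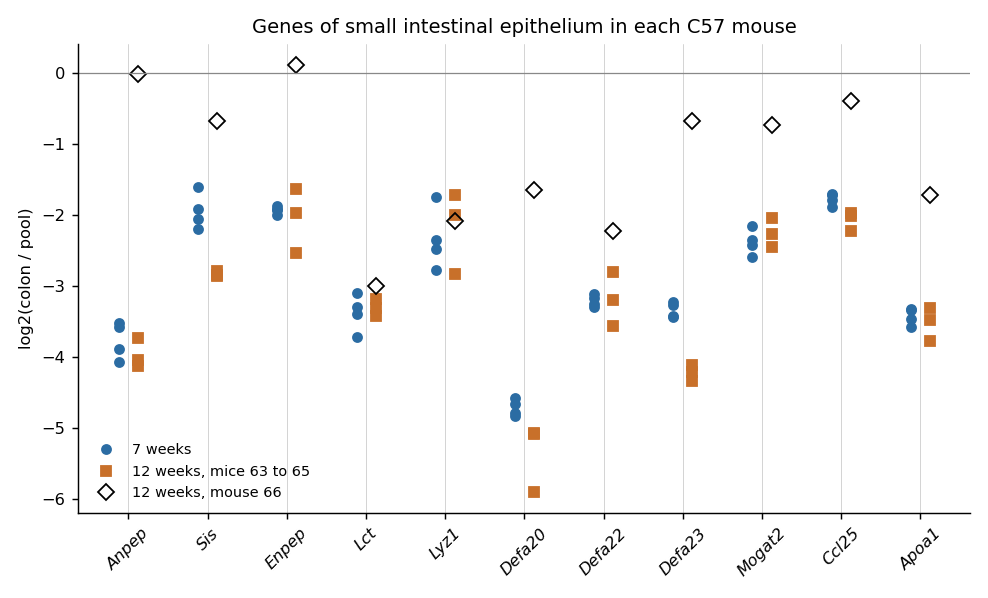
Log2 ratio of colon over pool of 11 genes of small intestinal epithelium in each C57 mouse (blue circles 7 weeks, orange squares mice 63 to 65, open diamonds mouse 66). Mouse 66 lies above all others for Anpep (-0.0015), Defa20 (-1.64) and Defa23 (-0.66) and within the range of the others for Lyz1 (-2.07).

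Genes of fetal tissues were uneven. Skeletal muscle genes were far below the pool. Of 12 genes 7 were called, led by Tnnt3, fast troponin T (-4.15 and -4.53), Ckm, muscle creatine kinase (-3.87 and -3.94), Mylpf and Acta1. Pvalb, parvalbumin of fast fibres, was -4.63, -4.67, -4.26 and -4.40 at 7 weeks and -5.17, -4.68, -4.47 and -4.22 at 12 weeks, and the muscle enolase Eno3 had means of -4.53 ± 0.14 and -4.57 ± 0.14. Which source of the pool held the RNA of Pvalb, Eno3 and the other muscle genes was not tested, and fetuses need not be the only one. The regulators Myod1 and Myog of developing muscle had -0.14 and -0.30 at 7 weeks and -0.28 and -0.25 at 12 weeks. None of 12 cartilage and bone genes and none of 11 genes of fetal nervous system was called in limma, with list medians of 0.02 and 0.13. An unadjusted limma p under 0.05 on 1 side of the pool at both ages was met by 3 (1 above, 2 below) and 6 (4 above, 2 below) of them. Of all 19076 genes 7149 met it. Of 15 fetal and imprinted genes only Mest was called (-1.60 and -1.65), while Afp, alpha-fetoprotein, had -0.58 and -0.55, H19 -0.58 and -0.66, and Igf2 -0.30 and -0.04. Of 9 red cell genes Hba-a1, adult alpha-globin, was called (-2.18 and -2.48), and of 12 epidermal genes Krtdap (-1.08 and -1.10, and -0.98 at 12 weeks without mouse 63).

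Prl8a2, a prolactin family gene known from mouse decidua, had the lowest gene mean over both ages, though Mup6 was lower at 12 weeks. It was -4.94, -5.25, -4.95 and -5.18 at 7 weeks and -5.95, -5.38, -5.13 and -4.81 at 12 weeks. Its means of -5.08 ± 0.13 and -5.32 ± 0.13 are 33.8-fold and 39.9-fold below the pool. Of 19 genes of this family it and Prl3c1 (-3.25 and -3.22) were called. Ctla2a, also expressed in mouse decidua and placenta, had -3.19 and -3.52. These genes were singled out after their values were seen, except Prl8a2, which is among the 12 lowest.

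Of 26 genes of mucosal immunity 4 were below the pool and none above it (3.09% and 0.493% of all genes were), with a median of -0.02. Itln1, an intelectin of Paneth and goblet cells, had means of -3.08 ± 0.12 and -3.35 ± 0.12. Retnlb, a goblet cell protein, had -2.87 ± 0.15 and -1.61 ± 0.15, with SDs of 0.55 and 0.33. On the Il10-/- arrays its mean (-0.04) and range (-0.21 to 0.10) were those of the value that many features of each array share. Those arrays enter the spread behind its errors and adjusted p. Ccl25, the chemokine of small intestine, had -1.77 and -1.65, with -0.38 in mouse 66 and -2.07 at 12 weeks without it. Reg3g, an antibacterial lectin, was 0.05 in mouse 45 and 0.40 in mouse 66, the latter being a value that many features of that array share, and between -3.66 and -1.61 in the other 6 mice. Its adjusted p at 7 weeks was 0.142, 0.125 and 0.111 without mouse 43, 44 or 46, and its 12-week mean moved from -2.15 to -3.003 without mouse 66. On the Il10-/- arrays Reg3g also held only such shared values, which enter the spread behind its adjusted p. Mt2, a metallothionein, was 0.52 in mouse 43 and between -3.20 and -1.84 in the others, and its 7-week mean of -1.55 was -2.24 without that mouse. Igtp, an interferon-inducible GTPase, was also highest in mouse 43 (-0.63, against -2.64 to -1.58).

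Genes that differ by strain or sex were examined, since the pool came from Swiss mice; their part in other ratios was not tested. Pla2g2a, which carries a loss allele in C57BL/6J, was below the pool (-1.25 ± 0.11 and -1.41 ± 0.11). Nnt, which is deleted in part in C57BL/6J, had -0.56 and -0.51, with 4 features between -1.0021 and -0.10. Xist, expressed from the inactive X chromosome of females, was below the pool in all 8 male mice (-1.24 ± 0.05 and -1.26 ± 0.05), with 4 features between -2.43 and -0.33. Means of the Y-linked genes Eif2s3y, Kdm5d and Uty lay between -0.06 and 0.22. The sex of the mice in the pool is not given in the sources used here.

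The ratio differed between the ages by 2-fold or more for 26 genes, in which the pool cancels. It was higher at 12 weeks for 18 genes (0.0944% of genes tested) and lower for 8 (0.0419%), and the 4 mice of 1 age lay beyond the 4 of the other for all of them. With each mouse left out in turn, 16 kept the call. Aqp8 and S100g were called in opposite directions at the 2 ages. Aqp8, a water channel of colon surface cells, was -2.25, -2.35, -2.11 and -1.99 at 7 weeks and 1.52, 1.80, 1.84 and 2.29 at 12 weeks (difference 4.04 ± 0.42, limma adjusted p = 0.000188). S100g, the calcium-binding protein calbindin-D9k, was 1.92, 1.37, 1.24 and 1.44 at 7 weeks and -1.63, -1.23, -0.74 and -1.68 at 12 weeks (difference -2.81 ± 0.22, adjusted p = 2.62e-05). Their mean over both ages therefore describes neither age. Of the 5 Gsdmc genes measured, gasdermins of epithelium, Gsdmc, Gsdmc2 and Gsdmc3 rose from -0.68, -0.77 and -0.58 to 1.59, 1.52 and 1.41, though near-identical copies can share probes. Reg4, a goblet and enteroendocrine cell lectin, rose from -0.83 to 2.10, and Spink4, a goblet cell peptide, from 0.31 to 2.08. Slc26a3, the chloride and bicarbonate exchanger, rose from 0.34 to 1.49, but its difference was 0.995 without mouse 66, under the threshold, and its adjusted p was 0.0546 without mouse 44.

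Among the 94 and 590 genes called at both ages, 1 in each set differed between the ages: Mpst above the pool (difference 1.27 ± 0.18, adjusted p = 0.00229) and Retnlb below it (1.26 ± 0.21, adjusted p = 0.00912). The spread behind the error and adjusted p of Retnlb includes Il10-/- arrays on which it held shared values. Mt2 had a difference of -1.37 ± 0.55 but an adjusted p of 0.3, and -0.68 without mouse 43. Mptx1, a mucosal pentraxin, had means of -3.11 and -4.05 (adjusted p = 0.00966, under 2-fold), and Pck1, of gluconeogenesis, -1.72 and -2.60 (adjusted p = 0.15). Of the 73 genes above the pool at 7 weeks alone, 5 differed between the ages in the test of that difference, and of the 65 at 12 weeks alone, 10. Below the pool, these were 4 of 52 and 3 of 52.

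Some abundant transcripts have no ratio of their own. On each array 1 exact value was held by 73 to 147 features, while the next most frequent value was held by at most 5. The shared value differed between arrays, from -0.47 in mouse 63 to 0.40 in mouse 66. It was held on at least 1 C57 array by 163 features and on all 8 by 59. The 121 of these features with 1 gene belong to 109 genes, including 34 genes of ribosomal proteins and 18 of the respiratory chain and ATP synthase. For 26 genes, such as Aldoa, Atp5g3, COX2 and Cox5a, every feature was at the shared value on all 8 arrays. Zg16, a goblet cell lectin, and Krt8, an epithelial keratin, were among them, so that both read 0.16 at 7 and 0.02 at 12 weeks, which is the mean of the shared values. Lgals4, an epithelial galectin, held it on 7 arrays in a feature, out of 3, and Fabp2, the fatty acid binding protein of small intestine, in 1 of its 2 features on 6. A feature at the shared value has no ratio of its own, so that its distance from 0 carries no measurement. Such features were counted on C57 arrays only. On these arrays 2 genes called at both ages had such a feature, and without these features 95 and 589 genes were above and below the pool. The median of the 11 goblet cell genes was 0.38 with them. With those features left out 9 of these genes remained, and the median of their means was 0.95. Their medians on single arrays were all lower, from -0.02 in mouse 66 to 0.84 in mouse 63.

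**Figure D5:**
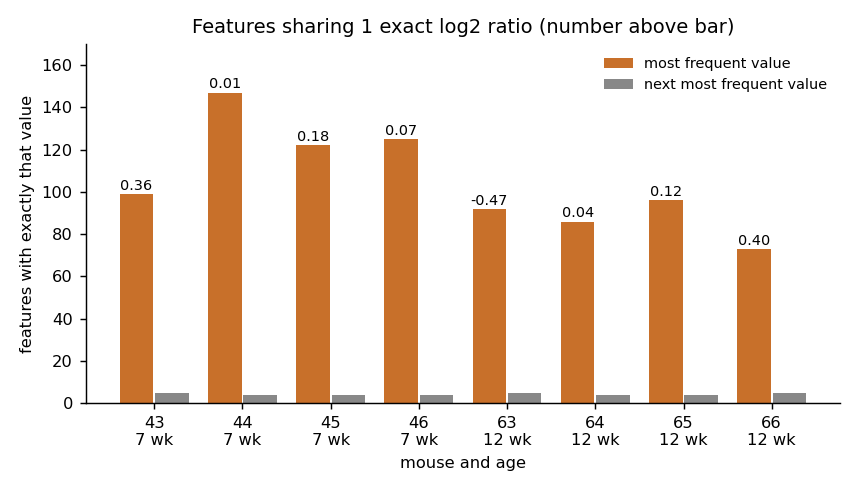
Number of features that hold the most frequent exact log2 ratio of an array (orange, with that ratio above the bar) and the next most frequent (grey), for each C57 mouse. The first is 73 to 147 features and the second at most 5.

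Features of 1 gene did not always agree. Of the 94 genes above the pool 16 have more than 1 feature, and for 5 of these every feature was beyond 2-fold at both ages. Of the 590 below it, the same held for 59 of 142. Akr1c20, for example, had features at -3.44 and 0.19.

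The 7 Il10-/- arrays, from 3 mice of 7 weeks and 4 of 12 weeks, were set against the same pool. By the paper's histology the first had no colitis and the second moderate colitis. The mean of the 7 arrays was at least 2-fold above the pool for 56 of the 94 genes (0.991% of all genes were so) and above 0 for 93. It was at least 2-fold below it for 563 of the 590 genes (3.76% of all genes were so) and below 0 for 584. The median over the 94 genes was 1.14 on these arrays, and over the 590 genes -1.82. Among the 12 highest genes, Cyp2c55 had an Il10-/- mean of 0.20 (range -0.96 to 1.53) and Ugdh 0.46 (-0.06 to 1.22). Abcb1a had 0.50 (0.18 to 1.06) and Sult1a1 0.58 (-0.53 to 2.01), while Fam83e had 2.04 (1.72 to 2.29) and Cdx2 1.98 (1.73 to 2.37). These genes were picked as highest in C57 mice, a choice that by itself can leave other means lower. The difference between genotypes was not tested here.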

How the data were processed

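Colon RNA (Cy3) and pooled reference RNA (Cy5) were hybridised to 15 Agilent arrays with 2 colours. The authors loess-normalised intensity ratios array by array, did not correct for background, and deposited log2 ratios, whose direction was read from the values. The submitters' processing notes name limma, and a genome build is not given in the sources used here. Each array has a value for 41687 to 42147 of 44290 features. A feature was tested if each group had 2 or more arrays with a value for it (42128 features), and genes took the mean of features that list that gene alone (32016 features, 19076 genes). limma 3.58.1 in R 4.3.3 fitted 4 group means over all 15 arrays (11 residual degrees of freedom), and each C57 mean was tested against 0 and against the other. A gene was called at a Benjamini-Hochberg adjusted p under 0.05 and at least 2-fold, at both ages when called in the same direction at each. Mice are the replicates, and with 4 per group their number limits the precision. The fit was tested on simulated data. Summaries used Python 3.11.15, pandas 2.3.3, numpy 2.4.6 and matplotlib 3.10.9.

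Genes named are the 12 highest and 12 lowest at both ages, up to 4 called members in each direction of each list (or 2 by size where none was called), the 3 largest rises and falls with age, 4 genes at the shared value, and sex-linked and loss-allele genes. Others were chosen after their values were seen: those of the sulfide, family, decidua and age paragraphs, markers given as values, and genes of mice 43 and 66. Members and lists were chosen with earlier results of these data known. Alternatives were other normalisations between arrays, other variance fits, other ways to combine features, other fold thresholds and leaving out mice.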

Additional observations from a re-analysis of the deposited data

Results flagged for a closer look

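Of 419 groups of 4 mice examined, values of named genes or medians of lists at 1 age, 25 held a mouse far from the other 3, its gap to the nearest of them as a share of the range, being over Dixon's critical value for 4 samples. Such a mouse is met by chance in about 1 in 20 groups that were not picked by their values, and 25 of 419 is near that rate. Genes of mice 43 and 66, such as Defa23, were named after their values were seen, so that rate does not apply to them. Mouse 43 of 7 weeks lay apart from the other 3 for Eif2s3y (-0.21, against -0.021 to 0.0072), Eno3 (-4.38, against -4.60 to -4.56) and Fabp2 (-0.34, against -0.56 to -0.54). Mouse 44 of 7 weeks lay apart from the other 3 for Acta1 (-2.68, against -2.99 to -2.94), Adamdec1 (1.64, against 2.16 to 2.18), Cdh16 (-3.41, against -3.15 to -3.13), Fxyd4 (-1.69, against -1.49 to -1.48), Myl9 (1.12, against 1.62 to 1.72), Rrm2 (-2.73, against -2.47 to -2.43), Slc26a3 (0.25, against 0.36 to 0.37), Slc27a5 (-2.46, against -2.03 to -1.96) and the median of fibroblasts (0.094, against -0.17 to -0.13). Mouse 45 of 7 weeks lay apart from the other 3 for Reg3g (0.052, against -1.93 to -1.61) and the median of goblet cells (0.63, against 0.32 to 0.36). The goblet cell median of mouse 43 was itself the shared value of that array, and with features at a shared value left out mouse 45 (0.72) lay within the range of the other 3 (0.35 to 0.79). Mouse 46 of 7 weeks lay apart from the other 3 for the median of reference genes (0.066, against -0.031 to -0.019). Mouse 63 of 12 weeks lay apart from the other 3 for Akr1c6 (-5.05, against -4.37 to -4.28), Ckm (-4.42, against -3.82 to -3.75), Pparg (1.62, against 1.42 to 1.44), Xist (-1.41, against -1.22 to -1.19) and the median of crypt stem cells (0.27, against 0.046 to 0.081). Mouse 66 of 12 weeks lay apart from the other 3 for Anpep (-0.0015, against -4.13 to -3.73), Ccl25 (-0.38, against -2.22 to -1.97), Defa23 (-0.66, against -4.33 to -4.10), Sis (-0.67, against -2.85 to -2.79) and Slc2a5 (-1.51, against -2.06 to -1.98).

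Among the named genes, 7 differed between the ages in limma: Aqp8 (4.04, adjusted p = 0.000188), Chga (-1.36, adjusted p = 0.0405), Mpst (1.27, adjusted p = 0.00229), Retnlb (1.26, adjusted p = 0.00912), S100g (-2.81, adjusted p = 2.62e-05), Slc26a3 (1.15, adjusted p = 0.0139) and Spink4 (1.77, adjusted p = 0.000188). In each, all 4 mice of 1 age lay beyond all 4 of the other. The spread behind the adjusted p of Retnlb includes Il10-/- arrays on which it had no ratio of its own. The difference of Chga was not called in 6 of the settings that leave out 1 mouse, with adjusted p between 0.0626 and 0.14, and that of Slc26a3 in 2.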

How the results depend on the processing

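No paired analysis was possible because the groups share no mouse numbers. Counts are given as above and below the pool, or as higher and lower at 12 weeks. With a 1.5-fold threshold they were 489 and 1196 at 7 weeks, 528 and 1173 at 12 weeks, 356 and 1049 at both ages and 44 and 33 between ages. With a 4-fold threshold they were 10 and 226, 14 and 228, 7 and 207, and 5 and 1. With each feature tested on its own they were 325 and 1080, 337 and 1078, 208 and 985, and 33 and 16, out of 42128 features. With treat against 2-fold, 65, 69 and 46 were above the pool at 7 weeks, 12 weeks and both, and 455, 457 and 418 were below it. Between ages 2 were higher and 1 lower. The most variable feature of each gene gave 14 lower between ages.

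Leaving out 1 C57 mouse at a time gave 92 to 104 genes above and 569 to 599 below the pool at both ages, and 14 to 19 higher and 4 to 15 lower between ages. The 8 lower genes became 15 without mouse 63, 5 without mouse 64 or mouse 43, 4 without mouse 44 and, in a choice made after the values were seen, 2 without mice 43 and 66. Scale and quantile normalization kept 88 and 94 of the 94 genes, and 574 and 589 of the 590. Among single genes and lists no direction turned; 3518 values for genes stayed on their side of the threshold, 104 fell short of it and 22 newly passed it. Reg3g was also lost in a fit of the 8 C57 arrays alone, Hoxb5 under scale normalization and Mpst with array weights; the cause was not tested. With 4 mice per age, 1 pool and no intensities, weak genes cannot be told from unmeasured ones.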

Other observations

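Features that list no gene or several numbered 10112 and were not averaged into genes. Of these, 28 were above and 112 below the pool at both ages, against 0.494% and 2.34% of all 42128 features, so that both were under those shares. Wider families were counted after their values were seen. All 8 Apoa and Apoc apolipoprotein genes, carriers of plasma lipid, were below the pool. Of 76 cytochrome P450 genes 22 were below and 3 above it, and of 349 solute carrier genes 33 were below and 4 above it, against 3.09% and 0.493% of all genes. None of 40 keratin genes was called in limma at both ages, and 12 had an unadjusted p under 0.05 at both.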
